A study of Gallus gallus with 20 samples.

Results

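Transcripts of 10 endothelial genes were followed in the livers of laying hens. The genes were VWF, FLT1, KDR, PECAM1, CDH5, TEK, TIE1, STAB1, STAB2 and ERG, chosen by name as genes of the cells that line liver vessels and sinusoids. They were chosen with earlier results of these data known. All 10 of the 10 listed symbols were in the table of 21749 genes, and all 10 were among the 12808 genes that had at least 1 TPM (a level scaled by transcript length and by the total of the library) in at least 4 libraries. The livers were those of hens of the Guangxi Ma, a local chicken of China. The 20 libraries formed 5 groups of 4: hens at 32 weeks of age, high layers and low layers at 50 weeks, and high layers and low layers at 72 weeks. No genotype or treatment is given for any group. The sample characteristics call the week 32 hens high layers while the design text gives them no laying class, so they are named only by age. Whether each library is a different hen is not stated, and p-values therefore reflect the spread among these samples, part of which may be technical.

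Blood in the liver runs through sinusoids, capillaries whose endothelium is perforated and lies on little basement membrane, so that plasma and lipoprotein particles pass between the blood and the hepatocytes. In a laying hen the yolk proteins and lipoproteins made by hepatocytes leave the organ across this lining. Endothelial cells of all vessels share adhesion molecules, receptors for vascular endothelial growth factor (VEGF) and angiopoietin, and transcription factors of the ETS family, while sinusoidal cells also carry large scavenger receptors. These roles were worked out mainly in mouse and human.

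Libraries were not all alike. Over the tested genes the median Spearman correlation of a library with the other 19 ranged from 0.923 to 0.953, and the 3 lowest were replicate 1 of week 50 high (0.928), replicate 3 of week 50 low (0.923) and replicate 2 of week 72 low (0.923). Spearman rho between the genomic span of genes and their deviation from the 20-library mean was -0.304, -0.216 and -0.154 in these 3. In the other 17 it ran from -0.164 (week 50 low replicate 4) to 0.288 (week 32 replicate 1). The relation was thus not limited to the 3, and leaving them out does not remove it. These values are across genes, which are not independent replicates. The members spanned 11986 to 152485 bases of genome with a median of 44384, against a median of 13667 over the 12560 tested genes with a span. ERG, VWF (138673 bases) and FLT1 (103393 bases) were the longest. The part of span in the members' differences was not tested. The signs and medians of the members' differences are given with and without these 3 libraries. Counts past the unadjusted threshold or without overlap are given with all 20 libraries only. The read depth behind each TPM is unknown, and column totals over the genes in the table were 764047 to 852815 TPM.

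The highest levels among the 10 genes belonged to the junction molecules. CDH5, or VE-cadherin, which holds neighbouring endothelial cells together, averaged 38.5 ± 11.1 TPM (SD, n = 20), and PECAM1, an adhesion molecule of the same cell borders, averaged 30.9 ± 11.1 TPM. CDH5 was the highest of the 10 in 14 libraries and PECAM1 in the other 6. STAB1, a scavenger receptor of sinusoidal endothelium and of some macrophages, followed with 17.3 ± 4.3 TPM. TEK, the angiopoietin receptor, had 15.7 ± 3.4 TPM, VWF, the clotting protein stored in endothelial granules, 14.8 ± 5.4 TPM, and KDR, the main signalling receptor for VEGF, 9.24 ± 2.61 TPM. STAB2, the hyaluronan-clearing scavenger receptor of sinusoids, averaged 8.34 ± 2.42 TPM and TIE1, the partner of TEK, 5.41 ± 1.82 TPM. ERG, an ETS transcription factor of endothelium, had 2.59 ± 0.69 TPM and FLT1, a VEGF receptor that signals weakly and binds the ligand tightly, 1.82 ± 0.84 TPM. FLT1 was the lowest of the 10 in 17 libraries and ERG in the other 3.

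Some neighbours in this order did not differ beyond their spread over libraries. STAB1 exceeded TEK in 11 of 20 libraries, TEK exceeded VWF in 13, KDR exceeded STAB2 in 13 and CDH5 exceeded PECAM1 in 14. The step from TIE1 to ERG held in all 20 libraries, with a mean log2 ratio of levels of 1.05 ± 0.64 (SD), and STAB2 exceeded TIE1 in 18 with 0.63 ± 0.50. The coefficient of variation over 20 libraries ran from 21.6% for TEK to 46.0% for FLT1, with a median of 28.9% over the members. Among the 8537 tested genes with a mean level inside the range of the members the median was 29.0%, so the members varied about as much as other genes of like level.

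**Figure D1:**
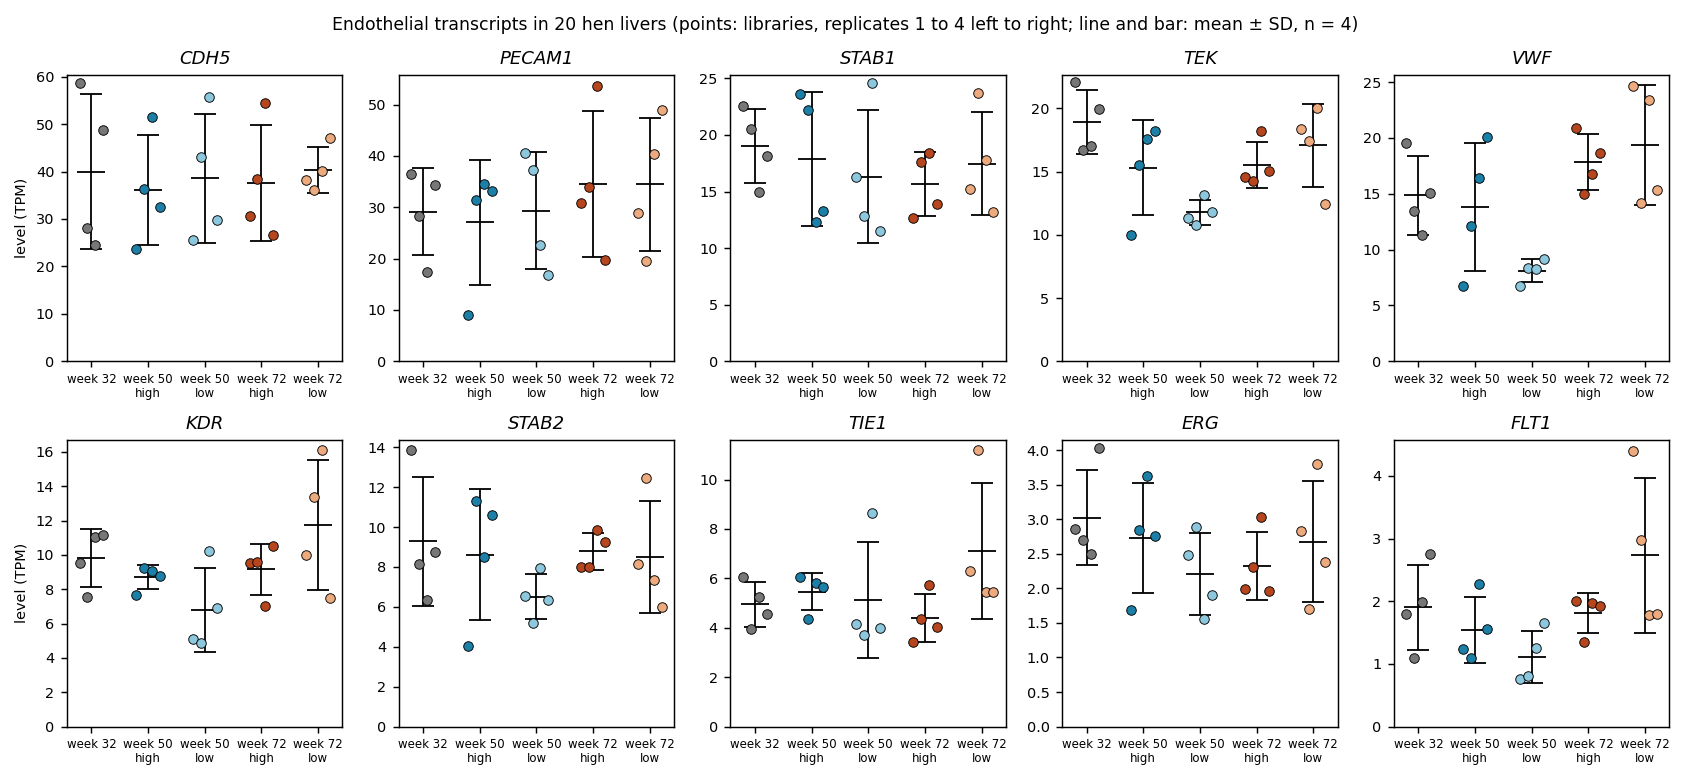
Level of each endothelial gene (TPM, linear axis from 0) in each of the 20 libraries, by group from week 32 to week 72. Points are replicates 1 to 4 from left to right, and lines and bars are mean ± SD (n = 4). VWF in week 50 low libraries lies between 6.71 and 9.17 TPM, below all week 72 libraries, and the highest TIE1 value, 11.2 TPM, belongs to week 72 low replicate 2.

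Among low layers the clearest separation between ages was in VWF (chromosome 1, 74643818 to 74782490, GRCg7b). It had 24.7, 14.2, 23.4 and 15.3 TPM in week 72 low replicates 1 to 4, against 6.71, 8.37, 8.23 and 9.17 TPM in the week 50 low libraries. All 4 libraries of week 72 lay above all 4 of week 50, and the means were 19.4 ± 5.4 and 8.12 ± 1.02 TPM, a ratio of 2.39. On the log2(TPM + 1) scale, on which all differences below are given and which understates the change of low genes, the difference was 1.13 ± 0.26 (SE), with a limma adjusted p = 0.112 over all genes. VWF therefore did not pass. Bulk RNA cannot tell fewer cells of a type from less RNA per cell, for this gene and all that follow.

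In high layers VWF had 20.9, 15.02, 16.8 and 18.7 TPM at week 72, against 6.70, 12.1, 16.4 and 20.1 TPM at week 50. These groups overlapped, with a difference of 0.43 ± 0.26. Single libraries moved it both ways. It was 0.15 ± 0.23 without week 50 high replicate 1, the lowest of these libraries, and reached 0.63 with another library left out. At week 32 VWF had 19.6, 13.4, 11.3 and 15.05 TPM, so the week 50 low libraries also lay below every week 32 library, by a difference of -0.78 ± 0.26 (limma adjusted p = 0.426). In mammals VWF is also made by megakaryocytes, whose platelets correspond to the nucleated thrombocytes of birds. Of 7 thrombocyte markers 6 were in the table, and their summed level was 13.5 to 18.3 TPM in week 72 low and 12.7 to 15.6 TPM in week 50 low libraries. ITGB3, an integrin chain of thrombocytes, and TUBB1, their tubulin, averaged 3.22 and 4.85 TPM over all libraries. The part of these cells in the VWF level was not tested.

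The VEGF receptors had the same order of groups in low layers. FLT1 (chromosome 1, 175670192 to 175773584) had 4.39, 2.98, 1.78 and 1.80 TPM in week 72 low libraries, against 0.752, 0.799, 1.25 and 1.64 TPM in week 50 low libraries. The groups did not overlap, and the difference was 0.79 ± 0.24 (limma adjusted p = 0.256). Week 72 low replicate 1 was the highest of all 20 libraries, and without it the difference was 0.59 ± 0.23 with adjusted p = 0.884. KDR (chromosome 4, 64703991 to 64731765) had 10.01, 13.4, 16.1 and 7.49 TPM in week 72 low libraries, against 5.12, 4.90, 10.2 and 6.88 TPM in week 50 low libraries. Here the groups overlapped, since week 50 low replicate 3 lay above 2 of the week 72 libraries, and the difference was 0.71 ± 0.23 (limma adjusted p = 0.311).

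In high layers the same receptors were closer between ages. FLT1 had 2.002, 1.35, 1.98 and 1.93 TPM at week 72, against 1.25, 1.10, 2.27 and 1.56 TPM at week 50, a difference of 0.16 ± 0.24. KDR had 9.53, 9.60, 7.04 and 10.5 TPM at week 72, against 7.67, 9.23, 9.08 and 8.76 TPM at week 50, a difference of 0.06 ± 0.23. Both overlapped, and neither passed. The ratio of the KDR level to the FLT1 level was above 1 in all 20 libraries, with a median of 5.51. Its extremes, 2.28 and 9.06, were in week 72 low replicates 1 and 3, so the 2 receptors did not keep a fixed proportion within that group.

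The angiopoietin receptors differed from each other. TEK (chromosome Z, 69139924 to 69176364) had 18.3, 17.4, 20.1 and 12.5 TPM in week 72 low libraries, against 11.3, 10.8, 13.1 and 11.8 TPM in week 50 low libraries, a difference of 0.49 ± 0.19 (limma adjusted p = 0.444). Only week 72 low replicate 4 reached into the week 50 range. At week 32 TEK had 22.1, 16.7, 17.1 and 19.9 TPM, and all 4 week 50 low libraries lay below them, by a difference of -0.64 ± 0.19 (limma adjusted p = 0.396). This comparison and the one with week 72 share the week 50 low libraries and are not independent. In high layers TEK had 14.5, 14.2, 18.2 and 15.1 TPM at week 72 against 9.98, 15.54, 17.6 and 18.2 TPM at week 50, a difference of 0.04 ± 0.19.

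TIE1 (chromosome 8, 19348573 to 19360558), which binds no angiopoietin tightly itself and modulates TEK, had 6.30, 11.2, 5.47 and 5.44 TPM in week 72 low libraries, against 4.15, 3.72, 8.64 and 4.01 TPM in week 50 low libraries. The group difference of 0.42 ± 0.24 did not pass, and 1 library in each group stood far above the rest: week 72 low replicate 2 and week 50 low replicate 3, both among the 3 least like the others. TIE1 also gave the smallest p of a member between high and low layers at week 72, where it had 3.44, 4.34, 5.75 and 4.03 TPM in high layers. That difference was -0.55 ± 0.24 (limma adjusted p = 0.929), and -0.34 ± 0.18 without the 3 libraries. The ratio of the TEK level to the TIE1 level ranged from 1.52 in week 50 low replicate 3 to 4.39 in week 32 replicate 4, with a median of 3.19.

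CDH5 (chromosome 11, 11164699 to 11194052) was close between the groups. It averaged 40.4 ± 4.8 TPM in week 72 low, 37.5 ± 12.2 in week 72 high, 38.6 ± 13.6 in week 50 low, 36.1 ± 11.6 in week 50 high and 40.0 ± 16.4 TPM in week 32 libraries (SD, n = 4). The spread within a group exceeded every difference between group means. PECAM1 (chromosome 18, 7472370 to 7501074) averaged 34.5 ± 12.9 TPM in week 72 low and 29.3 ± 11.5 TPM in week 50 low libraries, a difference of 0.23 ± 0.41. In high layers it had 30.8, 34.0, 53.6 and 19.7 TPM at week 72, against 8.93, 31.4, 34.6 and 33.2 TPM at week 50. The difference there was 0.42 ± 0.41, and -0.02 ± 0.36 without week 50 high replicate 1, whose PECAM1 level was the lowest of all 20 libraries.

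The scavenger receptors did not separate the groups. STAB1 (chromosome 12, 689338 to 741663) had 15.2, 23.7, 17.8 and 13.2 TPM in week 72 low libraries, against 16.3, 12.8, 24.6 and 11.5 TPM in week 50 low libraries, and 12.6, 17.6, 18.4 and 13.9 TPM in week 72 high libraries, against 23.6, 22.2, 12.3 and 13.3 TPM in week 50 high libraries. The age difference was 0.12 ± 0.25 in low and -0.14 ± 0.25 in high layers. STAB2 (chromosome 1, 54816115 to 54894225) averaged 8.50 ± 2.80 TPM in week 72 low and 6.501 ± 1.13 TPM in week 50 low libraries, a difference of 0.31 ± 0.27, and 8.78 ± 0.94 and 8.62 ± 3.27 TPM in the high layers of the same ages. STAB1 exceeded STAB2 in all 20 libraries. The ratio of their levels had a median of 2.02 and reached 5.83 in week 50 high replicate 1, where STAB2 was the lowest of all libraries (4.05 TPM) and STAB1 at rank 3 from the top (23.6 TPM). Of 8 macrophage markers 7 were in the table, and their summed level ran from 814 to 1305 TPM in week 72 low and from 845 to 2335 TPM in week 50 low libraries. Their part in the STAB1 level was not tested.

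ERG (chromosome 1, 107658703 to 107811187) had 2.83, 1.70, 3.79 and 2.38 TPM in week 72 low libraries, against 2.49, 2.89, 1.56 and 1.90 TPM in week 50 low libraries, a difference of 0.18 ± 0.22. Its 3 lowest values of all, 1.56, 1.68 and 1.70 TPM, were in the 3 libraries least like the others, and the other 17 ran from 1.905 to 4.03 TPM. STAB1 had its 3 highest values, 24.6, 23.7 and 23.6 TPM, in the same libraries, against 11.5 to 22.5 TPM in the rest. Among all tested genes, 2.34% had their 3 lowest and 2.69% their 3 highest values in these libraries. Of the members ERG has the longest genomic span (152485 bases) and TIE1, whose ranks from the top in these libraries were 5, 2 and 1, the shortest (11986 bases), while STAB1 lies between (52326 bases). The part of span in these values was not tested.

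**Figure D2:**
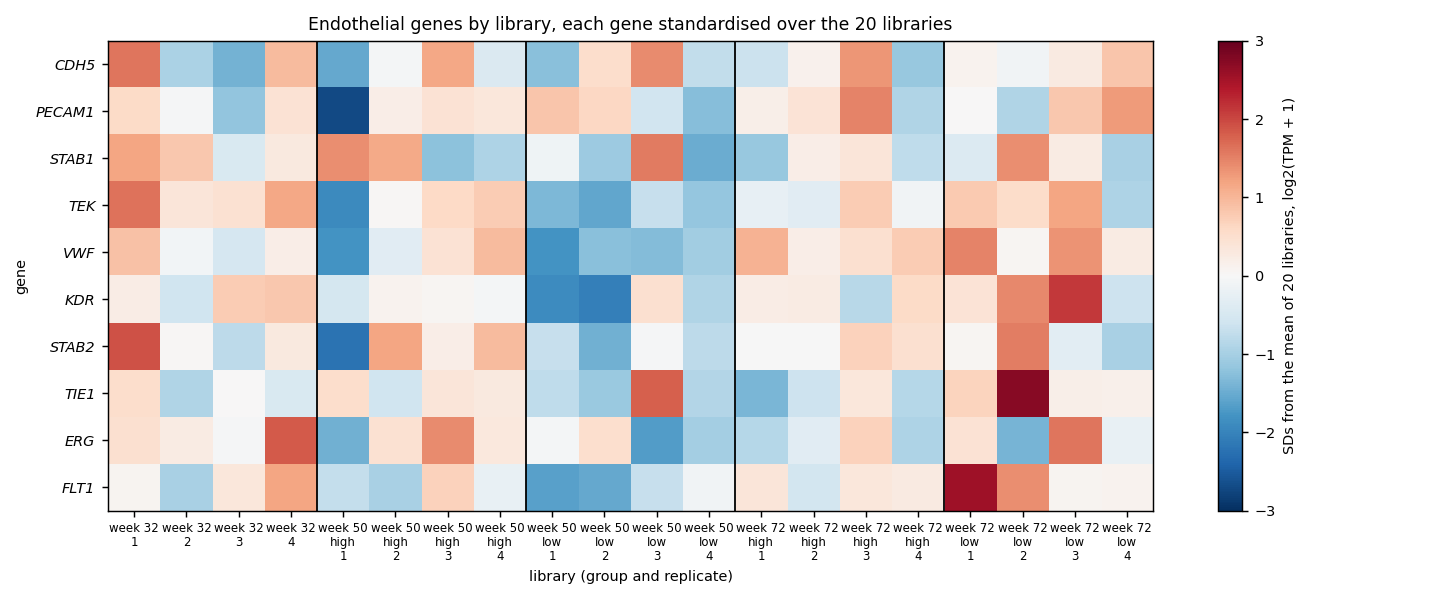
Level of each endothelial gene in each library, as SDs from that gene's mean over the 20 libraries on the log2(TPM + 1) scale (red above, blue below). Columns are libraries by group and replicate. Week 50 high replicate 1 is the lowest library for 5 of the 10 genes but has rank 3 from the top for STAB1, and week 72 low replicate 2 is the highest for TIE1.

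Counted over the members, the comparison of week 72 with week 50 in low layers gave 10 of 10 positive differences, with a median of 0.36 and a range from 0.12 to 1.13. Over all tested genes the median was -0.09, and 36.6% of differences were positive. The members come from the same libraries and are correlated with each other (median Pearson r = 0.35 over their pairs). Counts of members here and below are therefore not counts of independent results. Without the 3 divergent libraries the members gave 10 of 10 and a median of 0.41, and with any 1 library left out the median was 0.32 to 0.47. At the adjusted threshold of 0.05, 0 of the 10 passed in limma, where 0.039% of all genes did. At an unadjusted p under 0.05, 4 of the 10 were higher in limma (VWF, FLT1, KDR and TEK), where 1.93% of all genes were, 0 were lower, where 6.6% were, and 2 of the 10 had groups that did not overlap, with week 72 higher, where 0.765% did. In high layers the same comparison of ages gave 7 of 10 positive differences with a median of 0.06, against -0.10 over all genes, of which 33.6% were positive. This direction turned without the 3 divergent libraries, where 4 of 10 were positive with a median of -0.07, against -0.17 over all genes. The members' median was also -0.07 with only week 50 high replicate 1 left out. None of the 10 was called, where 0% of all genes were, and 0 were higher or lower at the unadjusted threshold, where 0.586% and 4.01% were. The interaction of laying class and age equals the age difference in high layers minus that in low layers. Over the members its median was -0.39, with 9 of 10 negative, and -0.59 with 10 of 10 negative without the 3 divergent libraries. Among all genes the interaction was positive in 48.9% with all libraries. It was -0.70 ± 0.37 for VWF, -0.63 ± 0.34 for FLT1, -0.65 ± 0.32 for KDR and -0.69 ± 0.34 for TIE1, with limma adjusted p = 1.0 for each, and 0 of 10 passed the unadjusted threshold as higher or as lower, where 1.23% and 1.15% of all genes did. In this test 0% of all genes passed the adjusted threshold. The age difference was thus not shown to differ between low and high layers.

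High and low layers were also compared within each age. At week 72, 55.8% of all tested genes had a positive difference of high minus low. Among the members 9 of 10 were negative, with a median of -0.13 against 0.03 over all genes. Leaving out 1 library moved this median between -0.22 (without week 72 high replicate 3) and -0.08 (without week 72 low replicate 3). Omitting replicate 2 or replicate 4 of week 72 low gave -0.21, and omitting replicate 1 of week 72 high gave -0.08. The median was -0.21 with 8 of 10 negative without the 3 divergent libraries. Of the members 0 of 10 passed in limma, where 0.00781% of all genes did. At the unadjusted threshold, 1 of 10 was lower (TIE1), where 1.62% of all genes were, and 0 were higher, where 3.65% were. At week 50, 8 of 10 differences were positive, where 59.8% of all genes were, with a median of 0.24 against 0.05. Without the 3 divergent libraries 10 of 10 were positive, with a median of 0.35 against 0.15. In the full set 0 of 10 passed, where 0% of all genes did. VWF was the only member past the unadjusted threshold as higher, by 0.61 ± 0.26 (limma adjusted p = 1.0), where 1.99% of all genes were, and 0 were lower, where 0.976% were. Without week 50 high replicate 1, in which 5 of the 10 members were at their lowest, the week 50 difference of VWF was 0.89 ± 0.23 (limma adjusted p = 0.793). The differences of TEK and STAB2 were then 0.50 ± 0.17 and 0.58 ± 0.24, against 0.32 ± 0.19 and 0.29 ± 0.27 with it. Other libraries moved them the other way: VWF was 0.41 ± 0.26 and TEK 0.24 ± 0.20 without week 50 high replicate 4, and STAB2 was 0.15 ± 0.29 without week 50 high replicate 2. No member passed over all genes with or without that library.

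**Figure D3:**
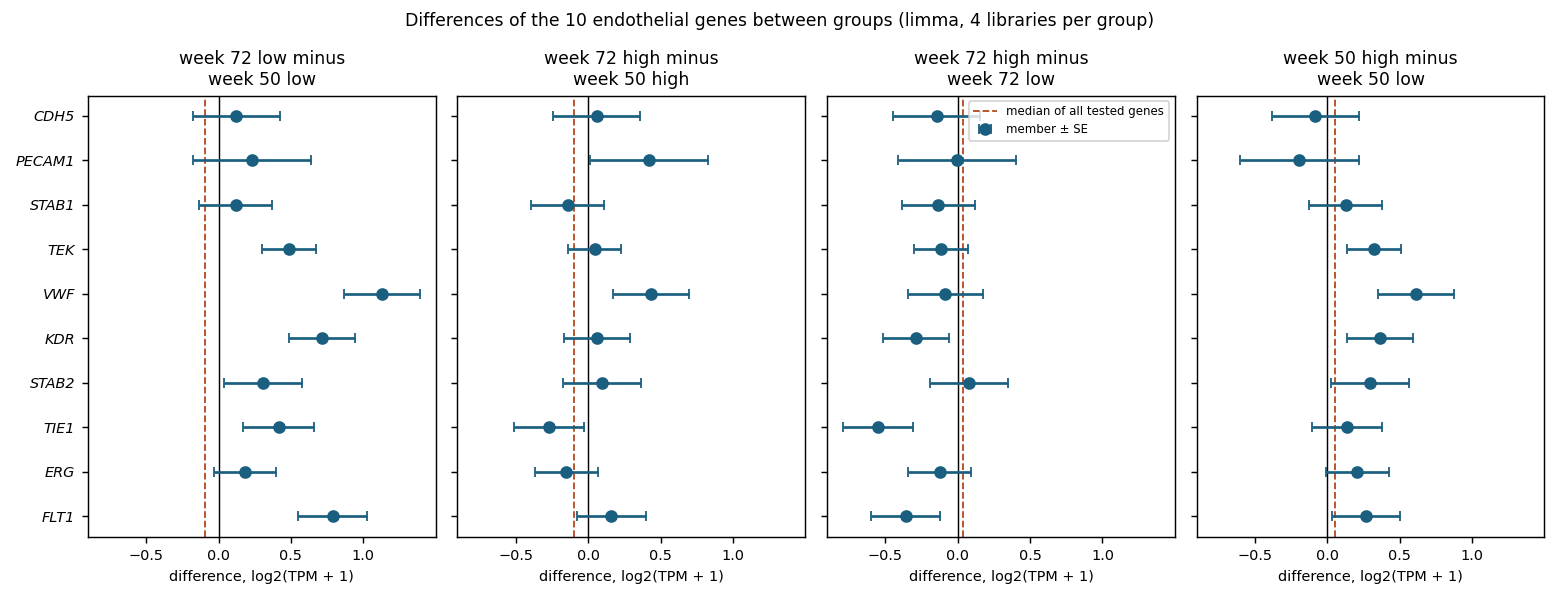
Difference of each endothelial gene between groups on the log2(TPM + 1) scale (points, with SE bars, limma on 20 libraries) and the median over all tested genes (dashed line). From left to right the panels give week 72 minus week 50 in low layers, the same in high layers, and high minus low layers at week 72 and at week 50. VWF at 1.13 in the first panel is the point farthest from 0.

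Against week 32, the week 50 low group had 10 of 10 negative differences, where 62.3% of all genes had positive ones. The median was -0.37, against 0.09 over all genes. Without the 3 divergent libraries 9 of 10 were negative, with a median of -0.47. Of the 10, 3 were lower at the unadjusted threshold in limma (VWF, KDR and TEK), where 2.19% of all genes were, 0 were higher, where 6.72% were, and 2 did not overlap, with week 50 low below (VWF and TEK), where 1.3% did. In limma 0 of 10 passed, where 0% of all genes did. Among markers of other cell types, described below, 8 of 9 stellate and stromal (median -0.51) and 6 of 9 hepatocyte markers were negative. So were 4 of 5 smooth muscle, 3 of 4 cholangiocyte and 3 of 3 lymphatic endothelial markers. Positive were 5 of 7 macrophage, 5 of 6 T or NK and 3 of 5 thrombocyte markers. Erythroid (4 of 4) and B or plasma cell markers (3 of 3) were all positive. Their part in the members' differences was not tested. In the other 3 later groups the members had medians of -0.14 (week 50 high), -0.07 (week 72 high) and 0.15 (week 72 low). Of all genes, 69.1%, 56.6% and 50.2% had positive differences there, in the same order. The week 50 high median turned without the 3 divergent libraries, to 0.05 with 6 of 10 positive, against 1 of 10 with them. Over all genes the median was then 0.21, still above that of the members. The members' median was also 0.05 with only week 50 high replicate 1 left out. The week 72 low median turned to -0.06 without week 32 replicate 3, and the week 72 high median ran from -0.19 without week 32 replicate 2 to -0.03 without week 32 replicate 4. Without the 3 divergent libraries week 72 high had 2 of 10 positive and a median of -0.07 and week 72 low 6 of 10 and 0.14, against 2 of 10 and 6 of 10 with them. These groups had 0 of 10 at the adjusted and at the unadjusted threshold in each. In the same order, 0%, 0.00781% and 0% of all genes passed the adjusted threshold. At the unadjusted one, 8.49%, 2.92% and 3.29% of all genes were higher and 1.53%, 2.3% and 4.4% lower. These 4 comparisons share the week 32 libraries. In week 50 high against week 32 the median of all genes was 0.13, and -0.02 after median-ratio scaling. Under that scaling the TIE1 difference of 0.13 ± 0.24 changed sign, and the members' median was -0.30 with 0 of 10 positive.

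The members were correlated across libraries to very different degrees. Over the 45 pairs the median Pearson r of log2(TPM + 1) was 0.35, with a range from -0.25 to 0.78, against a median of 0.13 over all pairs of tested genes. Of the member pairs 12, or 26.7%, had r over 0.5, where 10.7% of all pairs did. All libraries of a group share their age and laying class, so the same was computed on deviations from the group means, which gave a median of 0.31 and 9 of 45 pairs over 0.5, where 13.3% of all pairs were. Without the 3 divergent libraries the median of the values was 0.35, and 17 of 45 pairs, or 37.8%, were over 0.5, where 13.7% of all pairs were. These correlations describe the libraries used and carry no test.

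VWF and TEK were the pair most alike (r = 0.78, Spearman rho = 0.73, and r = 0.77 on deviations), followed by TEK and STAB2 (r = 0.75, rho = 0.70, and 0.77 on deviations). FLT1 joined them through VWF (r = 0.65) and KDR through TEK (r = 0.65), but on deviations from the group means these were 0.37 and 0.45. Over all 20 libraries a further set held PECAM1 with ERG (r = 0.64, and 0.77 on deviations) and with CDH5 (r = 0.59, and 0.59). KDR and PECAM1, both carried by most endothelial cells, had r = -0.15.

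The 3 libraries least like the others set some of these values. TIE1 and STAB1 had r = 0.53 over 20 libraries and 0.17 over the other 17. TIE1 and ERG had -0.25 with them and 0.49 without. PECAM1 and ERG fell from r = 0.64 over 20 libraries to 0.49 over those 17. In the same step PECAM1 and CDH5 rose from 0.59 to 0.66, and CDH5 and ERG from 0.40 to 0.60. Some pairs of related receptors were closer without these libraries: TEK and TIE1 had r = 0.65 against 0.26 with all libraries, and STAB1 and STAB2 had 0.58 against 0.29. The VEGF receptors FLT1 and KDR were not, with 0.56 against 0.58. VWF and TEK (0.72) and TEK and STAB2 (0.70) moved little.

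**Figure D4:**
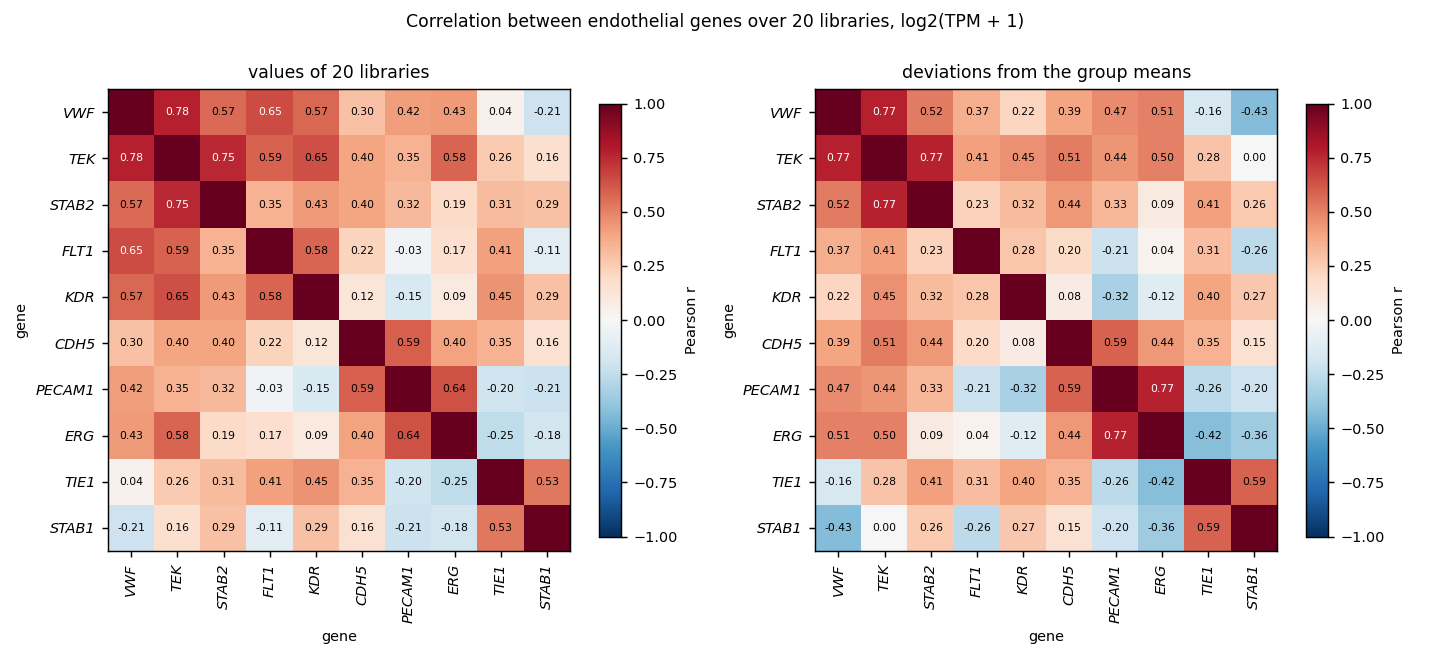
Pearson r between the endothelial genes over 20 libraries on the log2(TPM + 1) scale, from the values (left) and from deviations from the group means (right). VWF, TEK and STAB2 stand together in both, with r of 0.57 to 0.78 on the left, and STAB1 has r below 0.3 with all but TIE1 there.

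The tested genes whose levels followed the mean of the standardised members most closely were FGD5 (r = 0.83), PHACTR2 (0.81), ABCD2 (0.81), IL31RA (0.81), SEL1L3 (0.81), SULF2 (0.80), MIR7469 (0.78) and WWC2 (0.78). FGD5 is a guanine nucleotide exchange factor of endothelium in mammals, and it averaged 2.89 ± 0.45 TPM in week 72 low and 1.95 ± 0.09 TPM in week 50 low libraries. On deviations from the group means its r was 0.78. Of these 8 genes 0 were in the lists of endothelial genes described below. Taken singly, the gene most like FLT1 was VEGFRKDRL (r = 0.89), which had 51.9, 37.7, 25.6 and 23.5 TPM in week 72 low libraries, against 11.7, 15.7, 22.8 and 20.6 TPM in week 50 low libraries. In both genes week 72 low replicate 1 was the highest library of all. FGD5 and VEGFRKDRL were picked for likeness over these same libraries, so their group levels are not separate evidence. The gene most like STAB2 was TGFBR3, a coreceptor for transforming growth factor beta (r = 0.80). For PECAM1 and ERG the genes most alike were RBBP6 (r = 0.92) and TAB3 (r = 0.89), and their most similar members ranked only 1473 and 876 among all tested genes. For TIE1, STAB1 and CDH5 this rank was 795, 355 and 269. It was 7, 29, 13, 9 and 4 for VWF, FLT1, KDR, TEK and STAB2.

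The pathways around these receptors were read from 7 lists of 84 genes, of which 76 were in the table and 69 were tested. In limma 0 of 69 passed in any of the 9 comparisons, and the smallest adjusted p was 0.142. In week 72 against week 50 in low layers, 48 of 69 differences were positive, where 36.6% of all genes were. The median was 0.17 against -0.09 over all genes. At the unadjusted threshold 8 of 69 were higher and 2 of 69 lower, where 1.93% and 6.6% of all genes were. In high against low layers at week 72, 56 of 69 were negative, where 55.8% of all genes were positive. The median was -0.23 against 0.03, and 2 of 69 were higher and 8 of 69 lower, where 3.65% and 1.62% of all genes were. At week 50, 45 of 69 were positive, where 59.8% of all genes were, with a median of 0.10 against 0.05. Past the unadjusted threshold 2 of 69 were higher and 0 lower, where 1.99% and 0.976% of all genes were. Between ages in high layers 18 of 69 were positive, where 33.6% of all genes and 7 of 10 members were. The median was -0.17 against -0.10 over all genes. In week 50 low against week 32, 31 of 69 were positive, where 62.3% of all genes and 0 of 10 members were. The median there was -0.08 against 0.09 over all genes. The lists thus did not follow the members in every comparison.

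Among VEGF ligands and coreceptors, all 6 tested genes had positive age differences in low layers (median 0.32). VEGFA, the main ligand of KDR and FLT1, had 139, 110, 148 and 172 TPM in week 72 low libraries, against 121, 105, 94.6 and 93.2 TPM in week 50 low libraries. These overlapped, and the difference was 0.45 ± 0.18 (limma adjusted p = 0.488). FLT4, the VEGF receptor best known from lymphatic vessels, differed by 0.45 ± 0.20 (limma adjusted p = 0.522), with 3.61 ± 0.59 TPM at week 72 and 2.43 ± 0.86 TPM at week 50. Between high and low layers at week 72, VEGFA differed by -0.34 ± 0.18 and the placental growth factor gene PGF by -0.70 ± 0.41, while at week 50 VEGFC (0.26 ± 0.51) and FLT4 (0.09 ± 0.20) had the smallest p. Of 5 angiopoietin and TIE partners, 0 passed the unadjusted threshold in these comparisons. The ligand gene ANGPT2, whose product antagonises TEK in many settings, differed by 0.41 ± 0.39 and ANGPT1, which activates it, by -0.30 ± 0.33 between ages in low layers. The phosphatase gene PTPRB, which acts on TEK, differed by -0.28 ± 0.20 and ANGPT4 by -0.94 ± 0.48 between high and low layers at week 72.

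The list of vessel tone and clotting genes held ADAMTS13, the protease that cuts VWF. It had 65.7, 42.4, 24.9 and 36.8 TPM in week 72 low libraries, against 17.0, 17.0, 29.5 and 11.2 TPM in week 50 low libraries. Week 50 low replicate 3 lay above 1 of the week 72 libraries, and the difference of 1.14 ± 0.28 had the smallest p of the 69 genes here (limma adjusted p = 0.142). At week 50 its mean was 26.9 ± 3.2 TPM among high layers, against 18.7 ± 7.7 TPM among low layers. These groups overlapped, since week 50 low replicate 3 lay above week 50 high replicates 1 to 3 (23.84, 27.09 and 25.35 TPM). The difference of 0.57 ± 0.28 did not pass. MMRN1, which encodes a protein found in endothelial granules, had 0.739, 3.07, 0 and 3.80 TPM in week 50 high and 0.131, 0, 0.556 and 0.049 TPM in week 50 low libraries, which overlapped. The thrombomodulin gene THBD differed by -0.70 ± 0.44 between high and low layers at week 72.

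Notch and BMP genes included 12 of 13 with negative high minus low differences at week 72 (median -0.29). SMAD6, an inhibitor of BMP signalling, differed by -0.71 ± 0.26 (limma adjusted p = 0.789) and NOTCH1 by -0.42 ± 0.17 (limma adjusted p = 0.893). Between ages in low layers the Notch ligand gene DLL4 differed by 0.54 ± 0.22 and the Notch target gene HEY2 by -0.97 ± 0.27, neither passing over all genes. BMP10, a ligand of the endothelial receptor ACVRL1, had 4.53, 7.84, 7.66 and 5.70 TPM in week 50 high libraries, against 4.05, 4.35, 3.37 and 2.75 TPM in week 50 low libraries. As the gene of this list with the smallest p in that comparison, it differed by 0.67 ± 0.22 (limma adjusted p = 1.0). GDF2, which encodes the related ligand BMP9, differed by 0.52 ± 0.36.

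Vessel surface and junction genes had 11 of 14 negative high minus low differences at week 72 (median -0.17), among them ESAM (-0.68 ± 0.27) and EMCN (-0.63 ± 0.28), both past the unadjusted limma threshold and not past the adjusted one. Between ages in low layers 12 of 14 were positive, with EMCN at 0.74 ± 0.28, but PLVAP, which forms the diaphragms of endothelial pores, differed by -0.58 ± 0.31. Among sinusoidal scavenging and angiocrine genes GATA4, the factor that sets sinusoidal identity in mouse, had 3.67, 4.37, 4.38 and 4.06 TPM in week 72 high libraries, against 8.20, 5.82, 6.03 and 5.89 TPM in week 72 low libraries. It had the smallest p of this list in that comparison, and the difference was -0.54 ± 0.18 (limma adjusted p = 0.762). The scavenger gene CD36 differed by 0.40 ± 0.26 between high and low layers at week 72 and the mannose receptor gene MRC1 by 0.28 ± 0.27 between ages in low layers. Of 12 tested transcription factors of endothelium, 6 had positive and 6 negative age differences in low layers. SOX7 had the smallest p there and differed by -1.99 ± 0.77 (limma adjusted p = 0.457). SOX18, a factor of vessel development, differed by 0.58 ± 0.25 between the same groups, and ETS2, of the same family as ERG, by -0.69 ± 0.27 between high and low layers at week 72, neither past the adjusted threshold.

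Markers of the other cell types in the liver were summed in the same libraries. Hepatocyte markers (9 of 9 in the table) summed to 87380 to 156891 TPM in week 72 low and to 63573 to 90240 TPM in week 50 low libraries, and these overlapped. The most abundant of them were ALB, TF and FGG. Singly, 6 of the 9 had positive and 3 negative age differences in low layers, where 36.6% of all tested genes were positive. At the unadjusted limma threshold 4 were higher and 1 lower, where 1.93% and 6.6% of all genes were. Erythroid markers (4 of 5) summed to 792 to 1509 TPM in week 72 low, against 155 to 3798 TPM in week 50 low libraries. Stellate and stromal markers (9 of 9) summed to 84.9 to 206 TPM against 111 to 157 TPM and smooth muscle markers (5 of 6) to 56.7 to 123 TPM against 89.6 to 95.1 TPM, and both overlapped. B or plasma cell markers (5 of 6) summed to 24.4 to 91.1 TPM against 38.3 to 1260 TPM, T or NK cell markers (6 of 6) to 56.7 to 116 TPM against 48.1 to 240 TPM and cholangiocyte markers (5 of 6) to 90.8 to 168 TPM against 122 to 158 TPM. Lymphatic endothelial markers (4 of 4) summed to 18.5 to 33.3 TPM against 15.98 to 41.8 TPM. Most of this sum came from PROX1 and LYVE1, with means of 16.16 and 12.96 TPM over all libraries. FLT4 averaged 2.848 TPM, and PDPN, at 0.114 TPM, was below the filter. LYVE1 was also in the sinusoidal list and FLT4 in the VEGF list. Whether the sum reflects lymphatic endothelium was not tested. The members themselves summed to 153 to 176 TPM in week 72 low and to 99.9 to 154 TPM in week 50 low libraries. No marker in the table was at 0 in all libraries, and the part of these cell types in the members' levels was not tested.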

How the data were processed

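The authors deposited 1 table of TPM per gene for the 20 libraries of liver RNA, prepared with mRNA enrichment per the labels' protocols. GRCg7b is the build in the submitters' processing notes. The aligner, counter and annotation release were not given in the sources used here. Positions and spans are those of the RefSeq table of GRCg7b, which held 20888 of the 21749 symbols. Groups came from the labels. TPM values were tested as log2(TPM + 1) where 4 or more libraries reached 1 TPM, with one mean per group over all 20 libraries (limma 3.58.1 in R 4.3.3, mean-variance trend, two-sided, Benjamini-Hochberg over 12808 genes, called at an adjusted p under 0.05, 15 residual degrees of freedom). SE come from this model and SD from the libraries of a group. The model was tested on simulated data. The members and lists were chosen with earlier results of these data known. All members are named, of each list the 2 genes with the smallest p in 3 comparisons could be named, and for likeness the 8 genes with the highest r to the mean of the members, LOC symbols aside. Values named in observations beyond these were chosen after they were seen. A planned search of promoters for motifs was not made, since promoter sequence was not used here. Alternatives were another pseudocount, other filters, median-ratio scaling, only the groups compared, a replicate block, no trend, and leaving out libraries.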

Additional observations from a re-analysis of the deposited data

Results flagged for a closer look

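In 4 of the 50 groups of 4 libraries, 1 library lay far from the other 3, where chance gives about 2.5 at a rate of 1 in 20. TIE1 had 11.2 TPM in week 72 low replicate 2, with the others at 5.44 to 6.30 TPM, and 8.64 TPM in week 50 low replicate 3, with the others at 3.72 to 4.15 TPM. PECAM1 had 8.93 TPM in week 50 high replicate 1, with the others at 31.4 to 34.6 TPM. Those 3 values belong to the 3 libraries least like the others. FLT1 had 1.345 TPM in week 72 high replicate 2, with the others at 1.93 to 2.002 TPM.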

How the results depend on the processing

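In each of the 9 comparisons 0 members passed in limma under every alternative run, among 2502 recomputed differences, and the smallest adjusted p was 0.0529, for VWF in week 72 against week 50 in low layers without week 50 high replicate 1. For that VWF difference the alternatives that left out 1 library gave 1.01 to 1.26 and adjusted p from 0.0529 to 0.481, and the others gave 1.13 to 1.27 and adjusted p from 0.078 to 0.223. With the replicate block it was 1.13 ± 0.27 with adjusted p = 0.131, and the block changed no call of a member. For same-numbered libraries of different groups the correlation of deviations from the group means ran from -0.27 to 0.28. It exceeded 0.1 in 14 of 40 pairs, and 6 of 20 libraries correlated best with their own number. These values cannot tell whether a shared number stands for a pairing or a batch, which was not tested. A sign changed in 90 recomputed differences, and in all but 2 of them the difference as reported was smaller than its SE. Those 2 were PECAM1 in week 72 against week 50 in high layers, at -0.0238 with week 50 high replicate 1 left out and again with all 3 divergent libraries left out, and its range with 1 library left out was -0.0238 to 0.6528. With 5 TPM as the filter FLT1 and ERG were not tested. Genes called over all genes were 5 in week 72 against week 50 in low layers and 0 to 95 under the alternatives, with 95 without week 72 low replicate 3; the number was 1 (0 to 63) between high and low layers at week 72, again highest without that library. It was 0 (0 to 71) in week 72 low against week 32 and 0 (0 to 19) for the interaction, both highest without that library too, 0 (0 to 6) between ages in high layers, 0 (0 to 3) in week 50 low and 1 (0 to 3) in week 72 high against week 32. The depth behind each TPM is unknown, and FLT1 and ERG had the lowest levels of the 10.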

Other observations

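SOX7, a transcription factor grouped here with endothelial factors, had 27.1, 23.0, 78.4 and 80.02 TPM in week 72 high libraries, against 3.13, 5.52, 70.4 and 2.07 TPM in week 72 low libraries, a difference of 2.38 ± 0.77 (limma adjusted p = 0.672). In the other groups it had 97.6, 39.9, 19.3 and 25.5 TPM in week 50 high, 46.1, 54.1, 30.3 and 16.9 TPM in week 50 low, and 42.3, 27.6, 36.2 and 10.8 TPM in week 32 libraries. Its Pearson r with the mean of the standardised endothelial genes was -0.29 over 20 libraries, as a description with no test. Other genes of the lists with r below 0 were HEY2 (-0.41), KLF2 (-0.14), CLEC14A (-0.14) and PLVAP (-0.12), among others. The highest r in the 7 endothelial lists were those of MRC1 (0.71), DLL4 (0.66) and FLT4 (0.65), while GATA4 had 0.60 and ADAMTS13 0.58. The level of SOX7 in week 72 low replicate 3, 70.4 TPM, was far above the other 3 libraries of that group, and HEY2 had its highest value of the group, 1.77 TPM, in the same library, with 0.148, 0.421 and 0.516 TPM in the others.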
